A study of Mus musculus with 50 samples.

Results

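Fxyd1 and the beta subunits Atp1b1, Atp1b2 and Atp1b3 of the sodium pump were followed in the testis and the spinal cord of wobbler mice. Their members were taken as every probe of the deposited ratio table whose platform annotation carries 1 of these 4 gene symbols. The 4 genes, of 9930 named on the array, had 7 of its 20355 probes: Fxyd1 had 2 (2252 and 2735), Atp1b1 had 1 (17857), Atp1b2 had 1 (18493) and Atp1b3 had 3 (3775, 9097 and 14905). The 4 genes were chosen by the measured ratios of both tissues, so their ratios are described here without a test of their own. The pump's alpha subunits had 0 named probes in the annotation used and were not analysed here.

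The sodium pump (Na,K-ATPase) uses ATP to carry sodium out of the cell and potassium into it, and the resulting gradients drive excitability, cell volume and the uptake of transmitters and nutrients. Its alpha subunit does the transport, its beta subunit is needed for folding and delivery to the plasma membrane, and small FXYD proteins bind the complex and tune its affinity and rate. FXYD1, also called phospholemman, is a substrate of protein kinases A and C that is best known from heart and skeletal muscle, where the unphosphorylated protein restrains the pump. Atp1b1 is the widespread beta subunit, Atp1b2 was first described as an adhesion molecule on glia, and Atp1b3 is found in many tissues. In the testis, sperm also carry a pump with an alpha isoform of their own.

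On 2-colour arrays, total RNA of homozygous wobbler mice (wr/wr) was hybridised against pooled wild-type (wt) RNA from the matching organ. Wobbler mice carry a recessive mutation of Vps54, a subunit of a complex that tethers vesicles at the Golgi, and show motor neuron loss and sperm without a normal acrosome. The testis was measured in 10 individual wr/wr mice on 4 arrays each (40 arrays), and the cord in 3 wr/wr RNAs on 10 arrays: pool1 and pool2, each of 4 mice, and mouse 5995. The testis was also measured in each of the 9 mice behind the cord RNAs, and the labels give no age and no treatment. The wt side of each tissue is 1 pool, of the same 10 mice for both organs per the labels and of 6 per the labelling protocol, so the spread among wt mice does not enter any value. Whole organs were used, and in them fewer cells of a type and less RNA per cell cannot be told apart. The annotation named 0 probes for Vps54, and the mutated gene was not checked.

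Values are log2 ratios of wr/wr over wt, centred on the median of each array, where a difference of 1 is a doubling. Each array pair swapped the dyes, and an RNA's value is the mean of its arrays with wr/wr in Cy5 and its arrays with wr/wr in Cy3. The direction wr/wr over wt is likely but is stated neither in the labels nor in the table; if the ratios ran the other way, each sign given here would be reversed. The Cy5 and Cy3 arrays of 1 RNA correlated below 0 across probes in testis mice 5905 (Spearman rho -0.22), 6065 (-0.31) and 5997 (-0.11), and in all 3 cord RNAs (-0.23 in pool1, -0.02 in pool2 and -0.06 in mouse 5995). The other 7 testis mice had rho between 0.06 and 0.36. Member ratios are therefore given by dye orientation as well. Ratios within a probe carry no level, so no gene's abundance is set against that of another.

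The promoter windows of Fxyd1 and Atp1b1 are shown because their mean ratios over both dyes lay on opposite sides of 0 in each tissue. Not every value did: Atp1b1 was below 0, as was Fxyd1, in testes 5907 (-0.14) and 5997 (-0.28). In the Cy3 arrays of the cord, the means of Fxyd1 probe 2252 (-0.05) and Atp1b1 (-0.44) were both below 0. Probe 2252 and Atp1b1 also varied together across the testes, a relation that did not pass its test without 2 of the mice (r = 0.60, n = 8). Each window holds 300 bases around the gene's annotated start in RefSeq (GRCm38.p6), most of them upstream. The Fxyd1 window is chr7:31054804-31055103 and the Atp1b1 window chr1:164458306-164458605, both on the minus strand and printed 5′ to 3′ along the gene. Capitals mark matches on either strand to any of 4 motifs. These are TATAAA, the TATA box, and CCAAT, which is bound by the factor NF-Y. The others are GGGCGG, the GC box, and AGAACA, a half-site of steroid receptors.
Fxyd1: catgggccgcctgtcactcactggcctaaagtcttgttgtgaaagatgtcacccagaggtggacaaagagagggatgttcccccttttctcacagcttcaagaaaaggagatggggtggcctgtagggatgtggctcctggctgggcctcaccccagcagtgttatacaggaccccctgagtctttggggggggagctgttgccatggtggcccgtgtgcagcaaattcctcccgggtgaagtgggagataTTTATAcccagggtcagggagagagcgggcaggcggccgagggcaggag
Atp1b1: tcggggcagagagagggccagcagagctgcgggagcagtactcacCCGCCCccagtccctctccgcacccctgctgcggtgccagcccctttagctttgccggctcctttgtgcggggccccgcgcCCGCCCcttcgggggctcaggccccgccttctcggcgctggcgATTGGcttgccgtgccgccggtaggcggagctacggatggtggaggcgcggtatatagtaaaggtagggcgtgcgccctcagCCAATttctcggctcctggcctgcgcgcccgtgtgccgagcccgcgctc
The Fxyd1 window held 1 match to TATAAA, read on the other strand from base 252, and none to the other motifs. The Atp1b1 window held 2 matches to CCAAT and 2 to GGGCGG. Among 32851 promoter windows, 13.6% held TATAAA, 37.4% held CCAAT, 35.7% held GGGCGG and 19.0% held AGAACA, and no match overlaps another in the printed windows. The Fxyd1 window was 58.7% G and C and the Atp1b1 window 71.0%, against a median of 52.7% over all windows. Atp1b3 had 2 annotated windows, with 6 matches to GGGCGG in the first and no match to any motif in the second. These matches are letters in a window, and the arrays do not measure binding there.

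Fxyd1 was below the wt pool in the testis of nearly every wr/wr mouse and above it in the cord. On probe 2252 the lowest of the 10 testes was at -0.88 (mouse 5997), the median -0.51 and the highest -0.25 (mouse 6065). In cord, pool1 was at 0.48, pool2 at 0.56 and mouse 5995 at 0.33. All 10 testes were below 0 and all 3 cord RNAs above it, as for 1.45% of the 17005 probes tested in both tissues. The values of the tissues did not overlap for 14.5% of these probes, with the testis lower for 6.89%. This is a description, since these ratios chose the gene, and it holds for the dye-averaged values: with wr/wr in Cy3, the cord of mouse 5995 at -0.45 lay within the range of the testes, -1.16 to -0.34. The mean was -0.54 ± 0.18 in testis (SD, n = 10), which is 0.687 times the wt pool, and 0.46 ± 0.12 in cord (SD, n = 3), which is 1.37 times. In testis, 281 of 20218 tested probes had a lower mean (1.39%). If the ratios ran the other way, the testis value would be 1.45 times the wt pool, with 281 probes higher.

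The same values can be set out by animal, although a pooled cord does not show the sign of any single mouse in it. The testes of the 4 mice of pool1 had ratios of -0.88 to -0.38 on probe 2252, and their pooled cord 0.48. The testes of the 4 mice of pool2 had ratios of -0.58 to -0.25, and their pooled cord 0.56. Mouse 5995, the animal measured singly in both organs, was at -0.45 in testis and 0.33 in cord. Its cord value averages 1.10 with wr/wr in Cy5 and -0.45 with wr/wr in Cy3.

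In testis, both dye orientations of probe 2252 gave the same sign, while in cord they did not. The testis mean was -0.42 over arrays with wr/wr in Cy5 and -0.66 over arrays with wr/wr in Cy3, and 39 of 40 arrays were below 0. In cord the mean was 0.96 with wr/wr in Cy5 and -0.05 with wr/wr in Cy3. All 5 Cy5 arrays and 4 of 5 Cy3 arrays of the cord were above 0, the exception being mouse 5995 at -0.45. The cord ratio of Fxyd1 thus rests mostly on 1 dye orientation, and the part of the dye in it was not tested.

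The second Fxyd1 probe, 2735, was lower in 9 of 10 testes. Its lowest testis was at -1.36 (mouse 6069), the median at -0.36 and the highest at 0.08 (mouse 6065), with a mean of -0.44 ± 0.37 (SD, n = 10). The low value of mouse 6069 came from 1 array at -3.80, beside -0.78, -0.91 and 0.03 on its other arrays. Without that mouse the mean was -0.34. In cord, pool1 was at 0.63 and pool2 at 0.54 (0.58 ± 0.06, n = 2), while mouse 5995 had a value in Cy3 alone (-0.06) and no ratio over both dyes. Mouse 6065 had the highest Fxyd1 ratio of the testes on both probes. Across the 10 testes the 2 probes correlated at r = 0.38 (rho 0.18), which did not pass a permutation test (adjusted p = 0.652).

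**Figure D1:**
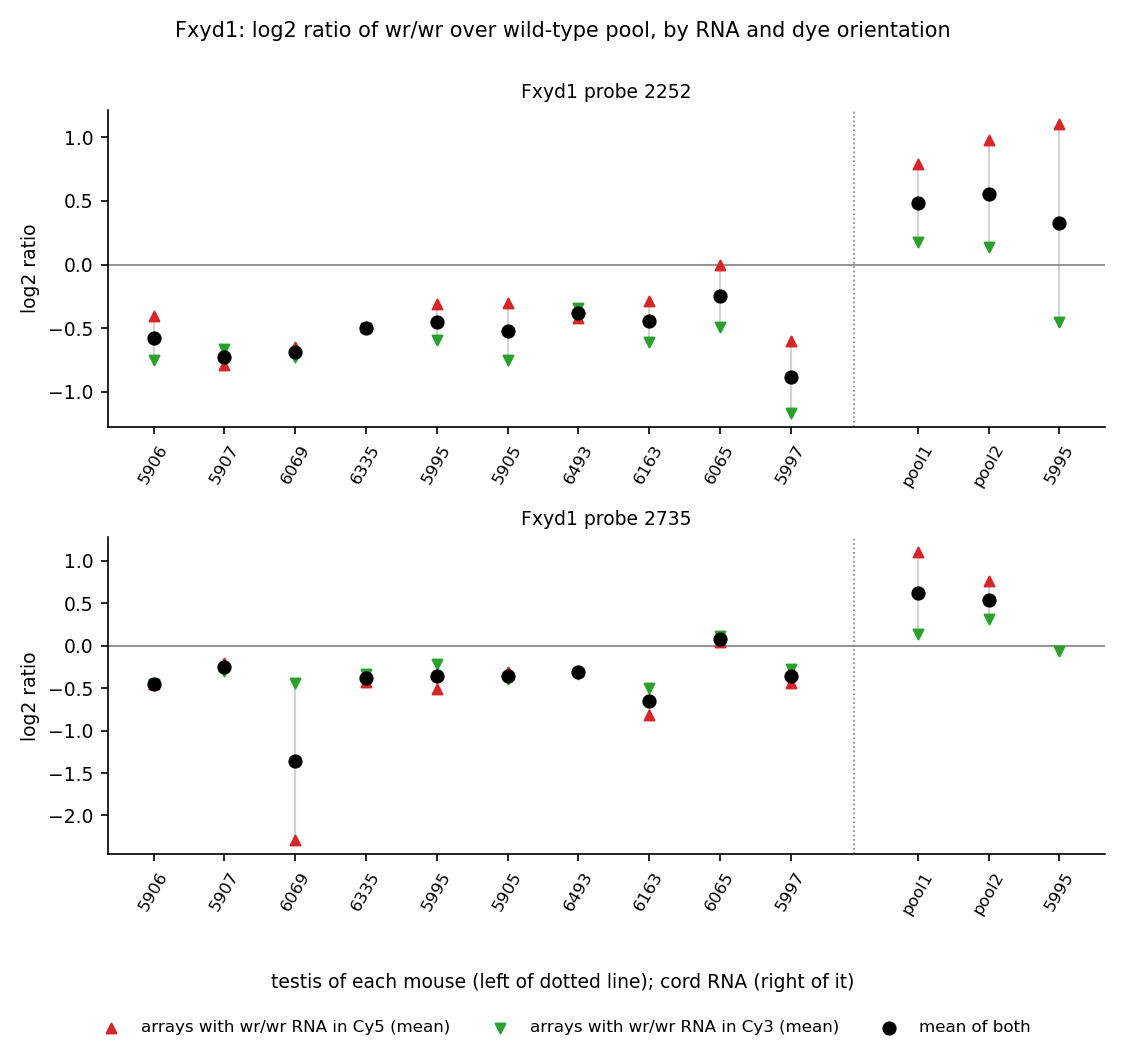
Log2 ratio (wr/wr over wt pool, y axis) of both Fxyd1 probes in each testis and each cord RNA (x axis). Black points are the mean of the dye orientations, triangles the mean of the arrays of 1 orientation; all 10 testes lie below 0 on probe 2252, and the Cy3 triangles of the cord lie between -0.45 and 0.31.

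Atp1b1, the widespread beta subunit, had mean ratios over both dyes on the other side of 0 from Fxyd1 in both tissues. In testis its probe ranged from -0.28 (mouse 5997) over a median of 0.19 to 0.80 (mouse 6065), and 8 of 10 mice and 32 of 40 arrays were above 0. In cord, pool1 was at -0.27, pool2 at -0.35 and mouse 5995 at -0.11. The means were 0.18 ± 0.30 in testis (SD, n = 10) and -0.24 ± 0.12 in cord (SD, n = 3). The testis SD exceeds the testis mean, and testes 5907 and 5997 lay among the cord values. By dye, the testis means were 0.22 (Cy5) and 0.14 (Cy3). The cord means were -0.05 (Cy5) and -0.44 (Cy3), so that here the Cy3 arrays carried the cord ratio.

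Atp1b2, the glial adhesion subunit, had no consistent sign in either tissue. Its testis values ran from -0.11 (mouse 6069) over a median of 0.15 to 0.69 (mouse 6493), with 6 of 9 mice above 0 and a mean of 0.18 ± 0.26 (SD, n = 9). Mouse 6065 gave a value on 1 of 4 arrays (-3.12, Cy5) and has no ratio over both dyes. In cord, pool1 was at -0.155, pool2 at -0.07 and mouse 5995 at 0.69 (0.15 ± 0.46, n = 3). The single cord thus stood above both pools by more than their own difference.

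Atp1b3, the third beta subunit, was measured by 3 probes, and these gave mean ratios in testis smaller than their SDs. In testis probe 3775 ran from -0.47 to 1.23 (mean 0.17 ± 0.45), probe 9097 from -0.36 to 0.69 (0.17 ± 0.37) and probe 14905 from -0.22 to 0.44 (0.08 ± 0.22; SD, n = 10 each). On each of them 6 or 7 of 10 testes were above 0. Probes 9097 and 14905 depended on the dye: their testis means were 0.48 and 0.25 with wr/wr in Cy5, and -0.13 and -0.09 with wr/wr in Cy3. The extremes of probe 3775 were single RNAs. Mouse 5997 was at 1.23 in testis with 1 array at 4.55, and mouse 5995 was at -2.34 in cord, beside 0.15 for pool1 and -0.33 for pool2.

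In cord the other Atp1b3 probes did not share that low value. Probe 9097 was at -0.14 for pool1, 0.41 for pool2 and 0.02 for mouse 5995 (0.10 ± 0.28, n = 3). Probe 14905 was at 0.03, -0.33 and -0.11 in the same order (-0.14 ± 0.18, n = 3). Across the testes, probes 9097 and 14905 correlated at r = 0.62 (permutation test, adjusted p = 0.297). Probe 3775 correlated with them at -0.40 and -0.18 (adjusted p = 0.652 and 0.810).

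**Figure D2:**
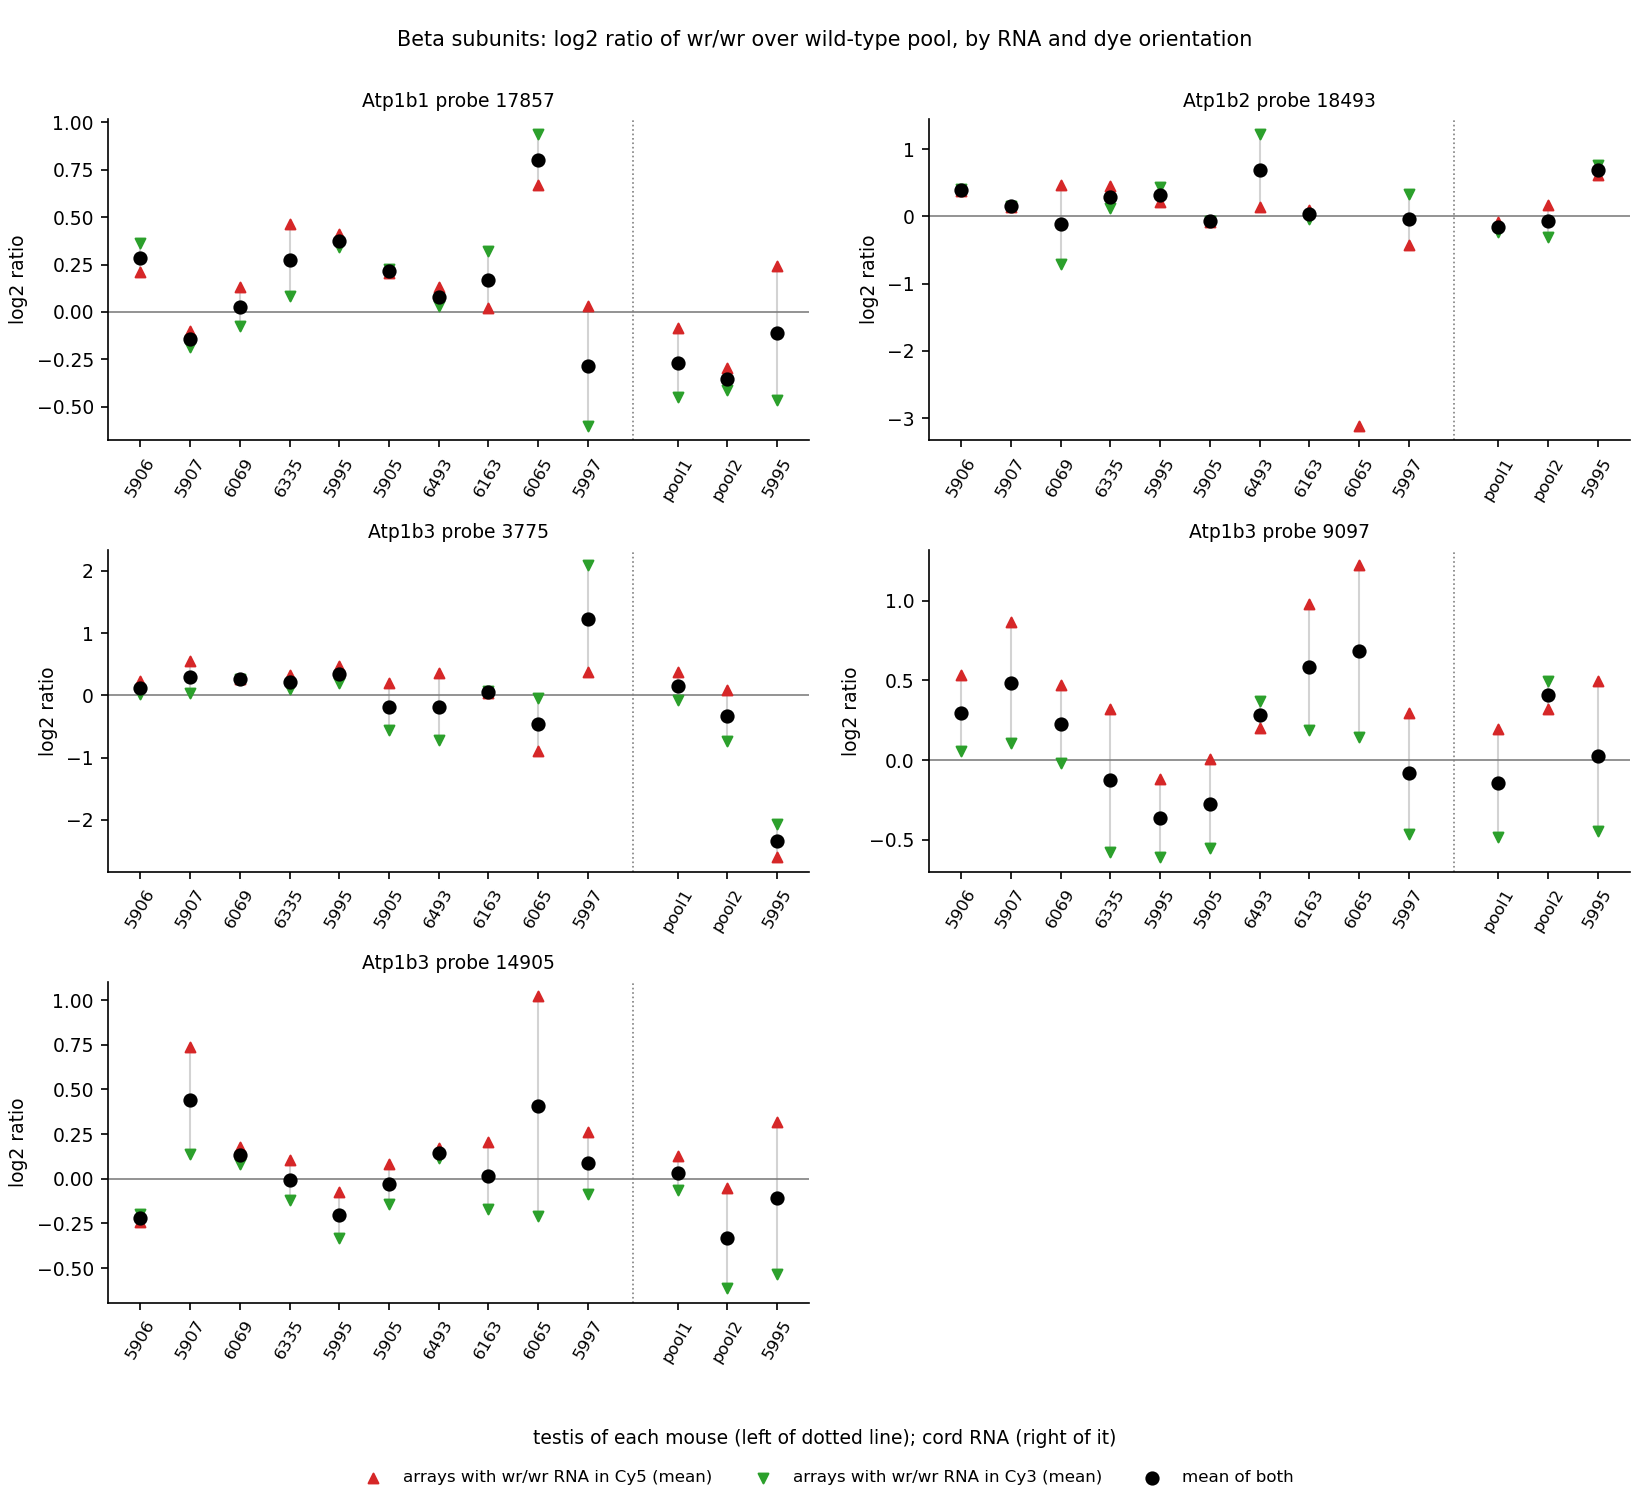
Log2 ratio (wr/wr over wt pool, y axis) of the 5 beta subunit probes in each testis and each cord RNA (x axis), with black points for the mean of the dye orientations and triangles for each orientation. The Cy5 triangles of Atp1b3 probe 9097 lie above the Cy3 triangles in 9 of 10 testes, and mouse 6065 has no mean for Atp1b2.

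Set side by side, the 2 Fxyd1 probes had the lowest testis means of the 7 and the highest cord means, a description only, since these ratios chose the genes. The beta probes' testis means lay between 0.08 and 0.18, with a median of 0.17 over the 5 probes, against -0.01 over all tested probes. These 5 means differ from each other by less than the SD of any of them. In cord the beta means spread from -0.84 to 0.15, with a median of -0.14 against -0.00317 over all tested probes, and with SDs of 0.12 to 1.32. Several of these means rest on single RNAs. In testis, Atp1b3 probe 3775 was at 0.049 without mouse 5997, Atp1b3 probe 14905 at 0.037 without mouse 5907 and at 0.041 without mouse 6065, Atp1b1 at 0.11 without mouse 6065 and Atp1b2 at 0.12 without mouse 6493. Both ends of the cord spread came from mouse 5995, without which Atp1b3 probe 3775 was at -0.09 and Atp1b2 at -0.11. The cord means of Atp1b3 probes 9097 and 14905 also moved by over 1.5 times without pool1 (0.22 and -0.22) and without pool2 (-0.06 and -0.04).

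In limma's test of the mean ratio against 0 over all probes (Benjamini-Hochberg adjusted p under 0.05), 12.3% of the probes tested in testis were called, 7.28% as higher and 5.06% as lower. Of the member probes, 2 of 7 were called, both for Fxyd1 and both lower, and 0 of the 5 beta probes. At an unadjusted p under 0.05 there was 1 of the 5 beta probes, beside 6133 of the 20218 probes tested in testis. These counts are given as a description, since the testis ratios chose the genes. The call of probe 2735 was lost without any 1 of 5 mice (5906, 6335, 5995, 6493 or 6163), in the Cy5 arrays alone and with a robust prior, and both calls were lost with the sign of the Cy3 arrays turned. Atp1b3 probe 9097 was called in the Cy5 arrays alone and with the Cy3 arrays turned. In cord 17055 probes were tested and 0.0% were called by limma (1476 at an unadjusted p under 0.05). There 0 of 6 member probes were called, 1 of them at an unadjusted p under 0.05, and probe 2735 was not tested.

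**Figure D3:**
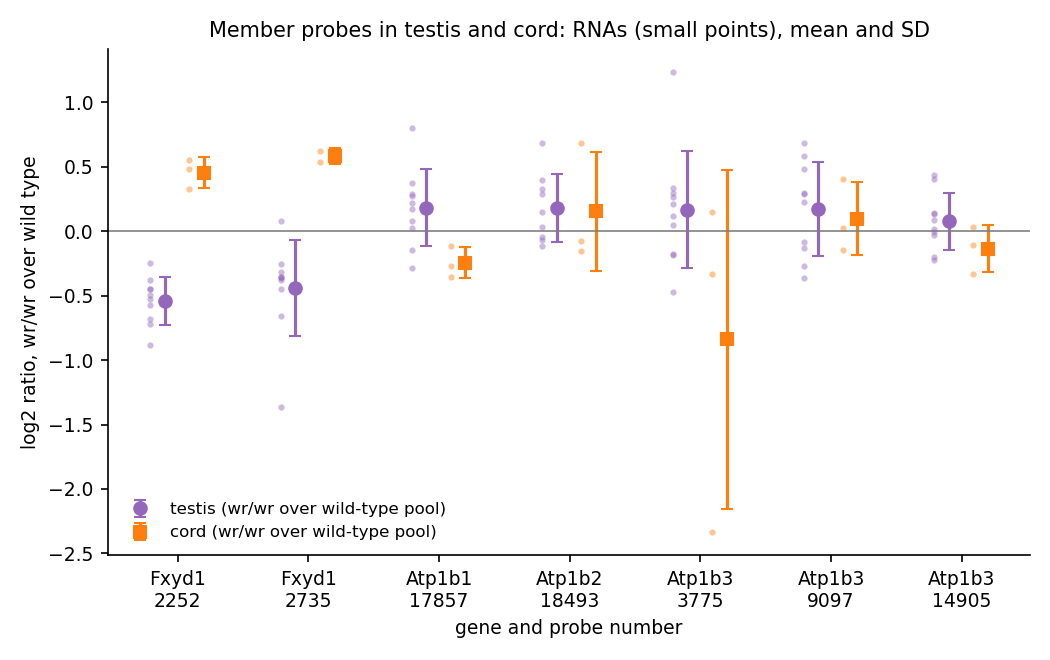
Mean log2 ratio (wr/wr over wt pool, y axis) of the 7 member probes (x axis) in testis (circles) and cord (squares), with SD bars and the single RNAs as small points. The Fxyd1 points of the 2 tissues lie apart, from -1.36 to 0.08 and from 0.33 to 0.63, and those of Atp1b2 and Atp1b3 overlap.

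Whether the members varied together from mouse to mouse does not use their mean ratio, and it was tested over all 21 pairs of member probes across the 10 testes. Testes with a less negative Fxyd1 ratio on probe 2252 had a higher Atp1b1 ratio (r = 0.86, rho 0.66; permutation test, two-sided, p = 0.00214, adjusted p = 0.0225, and 0.468 for rho). They also had a lower ratio on Atp1b3 probe 3775 (r = -0.85, rho -0.75; p = 0.00199, adjusted p = 0.0225, and 0.351 for rho). The other 19 pairs did not pass. Both relations passed only with mice 5997 and 6065, the ends of the Fxyd1 range, included. Without them r was 0.60 for Atp1b1 and -0.52 for Atp1b3 probe 3775, with an adjusted p of 0.696 for each (exact permutation test, n = 8).

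Both mice are among those whose dye orientations opposed each other. Within the Cy5 arrays, r was 0.72 for Atp1b1 (permutation test, adjusted p = 0.112) and -0.78 for Atp1b3 probe 3775 (adjusted p = 0.105). Within the Cy3 arrays it was 0.59 (adjusted p = 0.603) and -0.82 (adjusted p = 0.347). With the median over the arrays of a mouse in place of the mean, r was 0.83 and -0.80, each with an adjusted p of 0.0702. Over all testes the signs of r were shared by both orientations, and neither relation passed within 1 orientation. Within the Cy3 arrays, the sign for Atp1b3 probe 3775 did not hold without mice 5997 and 6493 (r = 0.32, and rho -0.37 over all testes). On that probe mouse 5997 had 1 Cy3 array at 4.55. The relation of Fxyd1 with Atp1b1 was not seen on the other Fxyd1 probe (2735, r = 0.38, rho 0.01, adjusted p = 0.652). Another pair, Atp1b1 with Atp1b3 probe 14905, had r = -0.05 over all testes. Without mice 5905, 6065 and 5997, a subset chosen after seeing the data, its r was -0.96 (exact permutation test, n = 7, adjusted p = 0.0167). In that subset Atp1b1 correlated with Atp1b3 probe 3775 at 0.05 and with probe 9097 at -0.67 (adjusted p = 0.969 and 0.474).

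**Figure D4:**
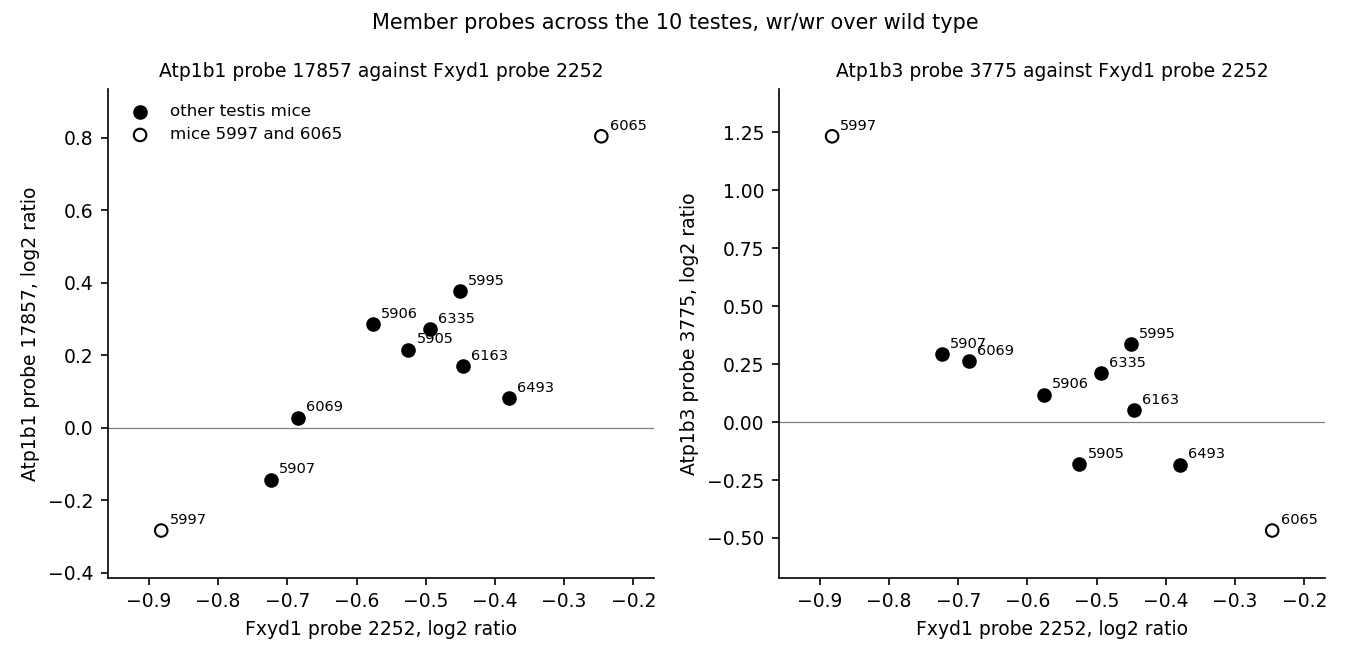
Log2 ratios (wr/wr over wt pool) of Atp1b1 (left panel, y axis) and Atp1b3 probe 3775 (right panel, y axis) against Fxyd1 probe 2252 (x axis), 1 point per testis with its mouse number. Open points are mice 5997 and 6065, without which r is 0.60 and -0.52.

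The probes most like each member across the testes were taken as the 5 with the highest Pearson r among those with 1 gene symbol and a value in all mice. They were picked from 13342 probes over 10 mice and are given as a description, with no test. For Fxyd1 probe 2252 these were Dpp4 (r = 0.96), a membrane peptidase, Rab31 (0.95), a small GTPase of vesicle traffic, Ctsa (0.94), a lysosomal protease, Pcmtd1 (0.93) and Tmem62 (0.93). Of these, Rab31 was higher in testis (0.24 ± 0.19, SD, n = 10; limma adjusted p = 0.0298), on the other side of 0 from Fxyd1. For Atp1b1 they were Upp1, Ppp2r2b, Gss, Rbpms and Cnot11 (0.92 to 0.93). For Atp1b2 they were Serf2, Vmac, Lman1, Dpt and Cenpv (0.88 to 0.92 over 9 mice). Between 43 and 168 probes reached r = 0.8 with a member.

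For Atp1b3, the 5 probes most like probe 9097 were Tnp1 (r = 0.99), a transition protein that replaces histones in spermatid chromatin, 1700018B08Rik, Prm1, a protamine that packs the sperm nucleus, Amigo2 and Drc1, a part of the sperm tail's dynein regulatory complex (0.98 each). Their own mean ratios ran from 0.19 to 0.33 with SDs of 0.30 to 0.50 and limma adjusted p-values of 0.144 to 0.185. Without mice 5905, 6065 and 5997, r was between 0.97 and 0.98. With the median of the round spermatid marker list, probe 9097 correlated at r = 0.30 (rho 0.05), and at -0.02 without the 2 mice farthest from its median. The other Atp1b3 probes differed from it and from each other. Probe 14905 correlated with that list at r = 0.66 (rho 0.62, and r = 0.83 without its 2 farthest mice) and probe 3775 at -0.05. These correlations were not tested.

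Other genes were listed as relatives or regulators of the pump, carriers tied to the sodium gradient, or other P-type ATPases, which include calcium and copper pumps. This list of 61 held 34 with a probe. Each gene was counted by its leading probe (the one with most values). In testis 2 of 34 tested genes were called higher and 0 lower, beside 7.28% and 5.06% of all probes, so that neither share exceeded that of all probes. At an unadjusted p under 0.05 there were 6 of the 34, a smaller share than the 6133 of 20218 probes tested in testis. Fxyd5 (dysadherin), a FXYD protein of epithelia, was higher in 9 of 10 mice (0.17 ± 0.14, SD, n = 10; limma adjusted p = 0.0369). That call was lost without any 1 of 8 mice, with adjusted p-values of up to 0.0825, and within either dye (0.08 in Cy5, adjusted p = 0.406, and 0.27 in Cy3, adjusted p = 0.139). Atp7a, a copper pump of the same P-type family, was higher in 9 of 10 mice (0.23 ± 0.13; limma adjusted p = 0.0154). Fxyd2, the kidney's gamma subunit, was at 0.20 ± 0.35, Fxyd6 at 0.20 ± 0.24 and Fxyd4 at -0.07 ± 0.12, none of them called. Of the 5 FXYD genes measured, Fxyd1 had the lowest testis mean, which is a description only, since Fxyd1 was chosen by these ratios.

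Some genes differed on 1 of several probes, none of them the leading one. Slc1a2, the glutamate carrier driven by the sodium gradient, was at -1.08 ± 0.78 on probe 16459 (below 0 in 10 of 10 mice; limma adjusted p = 0.0181), but at 0.01, -0.16 and 0.03 on its other probes. Atp2b1, a calcium pump of the plasma membrane, was at 0.20 ± 0.14 on probe 9266 (adjusted p = 0.0224) and between -0.04 and 0.07 on its 4 other probes. Among regulators of the pump, whose measured genes include the catalytic subunits of protein kinase A, the leading probe with the mean largest in size was that of Nkain1, which encodes a pump-interacting membrane protein (-0.09 ± 0.30), and among H,K-ATPase genes Atp4a was at 0.02 ± 0.11. Neither was called. Other probes of Prkca, a protein kinase C, had larger means of opposite sign, at 0.20 ± 0.21 on probe 12855 (limma adjusted p = 0.0693) and -0.14 ± 0.13 on probe 18825 (0.0530). The call of Atp2b1 was lost without mouse 6493 (limma adjusted p = 0.0522) and within either dye, that of Atp7a within the Cy5 arrays (0.132) and that of Slc1a2 with a robust prior (0.1001).

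In cord 30 of the listed genes were tested and 0 were called by limma, none of them at an unadjusted p under 0.05. On leading probes, the mean largest in size of each list was that of Slc8a3, a sodium-calcium exchanger (0.37 ± 0.38), Atp13a2, a lysosomal P-type pump (-0.36 ± 0.40), Prkacb (-0.22 ± 0.11), Atp4a (-0.15 ± 0.14) and Fxyd4 (0.12 ± 0.29; SD, n = 3 each). Slc1a2 and Slc1a3, the glutamate carriers of astrocytes, were at 0.36 ± 0.25 and 0.28 ± 0.09 on theirs, and Prkaca at 0.21 ± 0.80. Fxyd2 and Fxyd5 had 2 cord RNAs each and were not tested.

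Cell type marker lists are given beside the members. In testis, the Leydig list (genes of testosterone synthesis) had a median of -0.27, with 3 of 5 genes called lower. Its median was below 0 in 10 of 10 mice, as for Fxyd1 probe 2252, but so were the astrocyte and microglia medians. The skeletal muscle median was below 0 in 9 mice. Across mice, Fxyd1 probe 2252 correlated with the Leydig median at r = -0.11 (0.36 without mice 5997 and 6065). With the Sertoli median its r was 0.64 (-0.02 without those mice) and with the epididymis median -0.43 (-0.71). The Sertoli list (the supporting cells of the tubule) had a median of 0.24, with 5 of 8 genes called higher and its median above 0 in all mice, and Atp1b1 correlated with it at 0.64 (-0.04 without those mice). Astrocyte genes had a testis median of -0.08 (2 of 18 called lower), microglia and macrophage genes -0.06 (4 of 10 called lower), peritubular smooth muscle 0.13 (0 of 4 called), epididymis 0.04 (0 of 4) and choroid plexus -0.02 (0 of 4). Neuron genes were at -0.08 (2 of 10 called lower), skeletal muscle genes at -0.06 (1 of 9 called lower), round spermatid genes at 0.05 (1 of 7 called lower), endothelium at -0.07 (0 of 7) and myelin at 0.06 (0 of 5). Atp1b1 correlated with the round spermatid median at -0.50 (-0.91 without mice 5997 and 6065). With the peritubular smooth muscle median, r was 0.75 for Atp1b1 (0.57 without those mice) and 0.60 for Fxyd1 probe 2252 (0.38). For Fxyd1 probe 2735 it was 0.21. With the choroid plexus median, probe 2735 correlated at 0.85 (0.14 without the 2 mice farthest from the probe's median) and probe 2252 at 0.15. None of these correlations was tested. The part of these cells in the members' testis ratios was not tested.

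In cord, where 0 probes were called, the microglia list had a median of 0.65 with 8 of 8 tested genes above 0, in the direction of Fxyd1. Endothelium was at 0.29 (4 of 5 above 0), but its median was 0.06 in pool1, -0.02 in pool2 and 0.57 in mouse 5995. Myelin genes were at -0.40 (3 of 3 below 0), skeletal muscle genes at -0.40 (4 of 4 below 0) and neuron genes at -0.19 (7 of 10 below 0), in the direction of Atp1b1. Astrocyte genes were at 0.02 (10 of 18 above 0), choroid plexus genes at 0.09 (2 of 3) and smooth muscle genes at -0.07 (1 of 3). Of the other lists, round spermatid genes were at 0.18 in cord (5 of 7 above 0) and epididymis genes at 0.18 (1 of 2). Leydig genes were at -0.15 (1 of 4) and Sertoli genes at 0.08 (3 of 6). The medians of the single RNAs ran from 0.63 to 0.72 for microglia and from -0.45 to -0.38 for myelin. The part of these cell types in the cord ratios of Fxyd1 and Atp1b1 was not tested.

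**Figure D5:**
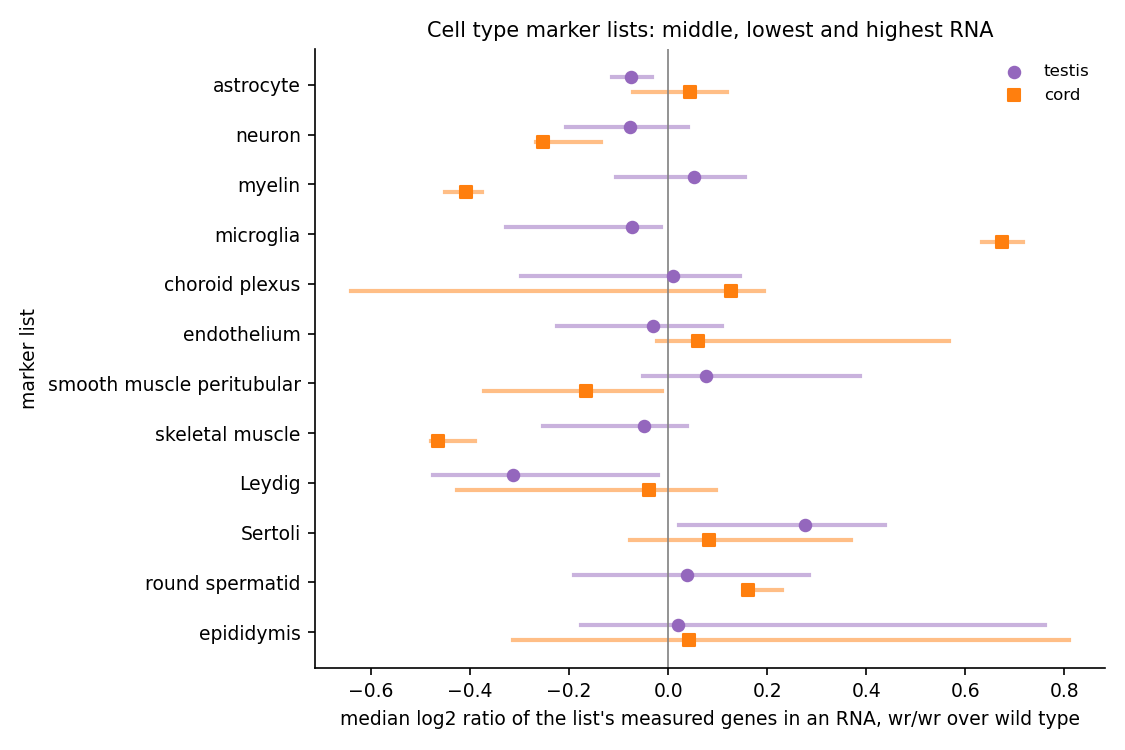
Median log2 ratio (wr/wr over wt pool, x axis) of the measured genes of each marker list (y axis) within an RNA: points are the middle RNA of testis (circles) and cord (squares), and bars run from the lowest to the highest RNA. The Leydig, astrocyte and microglia bars of the testis lie below 0 and its Sertoli bar above 0, and the microglia bar of the cord lies at 0.63 to 0.72.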

How the data were processed

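Total RNA of wr/wr testis and cord was reverse transcribed, labelled indirectly with Cy3 or Cy5 and hybridised against a wt pool, per the labels' protocols. The deposited table gives 1 log2 value per probe and array (18338 to 20189 values on an array); its background correction, normalization and log base are stated neither in the labels nor in the file, and log2 was read from the size of the values. A set of 1472 values over 10 in size, none on a member probe, was positive on all 586 occasions with wr/wr in Cy5 and negative on all 886 in Cy3; no sign was turned. The number of arrays limits the precision, since no intensities were used.

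Each array was centred on its median; arrays of 1 dye were averaged per RNA, then both dyes. Probes with both dyes in at least 8 testis RNAs (20218) or all 3 cord RNAs (17055) had their mean ratio compared with 0 by limma (version 3.58.1, lmFit and eBayes, under R 4.3.3; Benjamini-Hochberg over all probes). The arrays of 1 RNA count as 1 replicate, and testis replicates are separate mice. Correlations used 100000 permutations, or all of them under 10 mice. The planned fit of testis minus cord with 1 pooled spread was not used for any gene, because the median SD was 0.163 over testis RNAs and 0.263 over cord RNAs. Cord RNAs and testes share animals, and the fit pairing them is given with the other alternatives. On simulated data the testis fit recovered nearly all planted shifts, while the cord fit recovered none, so its count of 0 carries little. Each planted shift had a size of 1 in log2, larger than any member's mean testis ratio, and the recovery of smaller shifts was not tested. The pooled-spread fit called many probes simulated with no tissue difference. The annotation gave 1 symbol for 14030 probes, several for 5 and none for 6320. Named genes are all member probes, listed genes with a called probe or else the largest mean of a list, and the 5 most alike probes; a gene with several probes counts by the one with most values. Members, gene lists and marker lists were chosen with earlier results of these data known. Promoter windows were read for 3 of 4 members (all but Atp1b2).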

Additional observations from a re-analysis of the deposited data

Results flagged for a closer look

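Fxyd1 probe 2252 was below 0 in all 10 testes and above 0 in all 3 cord RNAs, with a testis minus cord difference of -0.996 in the means on the log2 scale. The difference was not tested, since the gene was chosen by these ratios. Slc1a2 probe 16459 showed the same pattern, with a testis minus cord difference of -1.32, not tested either. In the testis values of Fxyd1 probe 2735, mouse 6069 at -1.36 lay far from the nearest other mouse at -0.66. In those of Atp1b3 probe 3775, mouse 5997 at 1.23 lay far from the nearest at 0.34. These were 2 of 11 probes examined for such a gap by Dixon's test, which chance flags in about 1 of 20.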

How the results depend on the processing

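Of 206 member ratios recomputed under other settings, 190 moved by less than their SD over RNAs. That count includes means with 1 RNA left out, which cannot move by an SD, so it overstates how stable the ratios were. A change of sign could also stay within an SD, as for Atp1b3 probe 9097 in testis (0.17, and -0.13 from Cy3 arrays alone). With the sign of the Cy3 arrays turned, Fxyd1 probe 2252 reversed in testis (0.12), as did Fxyd5 (-0.092), Slc1a2 probe 16459 (0.050), Atp2b1 probe 9266 (-0.00345) and Atp7a (-0.076); in cord Fxyd1 probe 2735 moved to 0.36, Atp1b1 to 0.20 and Atp1b3 probe 14905 to 0.27. From Cy5 arrays alone, Atp1b2 was at -0.17 in testis, and in cord Fxyd1 was at 0.96 (probe 2252) and 0.94 (2735), Atp1b1 at -0.047 and Atp1b3 probe 14905 at 0.13. From Cy3 arrays alone these cord values were -0.046, 0.13, -0.44 and -0.40. Scaled arrays gave 0.72 for Fxyd1 probe 2735 in cord. With the tested probes of a gene averaged, the cord value was -0.29 for Atp1b3. For Fxyd1 it was 0.46, which is probe 2252 alone, since probe 2735 was not tested in cord.

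Calls across all probes in testis numbered 2494, against 1352 from Cy3 arrays, 949 with Cy3 turned, 1549 with a robust prior, and 752 (without mouse 6493) to 2580 with 1 mouse left out, where leaving out mouse 5906, 5907, 6069, 6335, 5995 or 6493 moved the count by over 1.5 times. Cord gave 0 calls under every alternative run, by limma. For testis minus cord, 3604 probes were called with 1 pooled spread (a fit that also called many probes simulated with no difference, so that this count and those beside it may hold false calls), 1604 from Cy5 arrays, 1832 with Cy3 turned, 8 with a spread per tissue (chosen after seeing the data), 2843 to 4684 with 1 RNA left out, and 0 in the replicate block pairing each cord RNA with the testes of its own mice. The cause of these changes was not tested. Pairs of member probes past the threshold numbered 2, against 0 in either dye alone, 1 without the 2 mice farthest from the median, 0 with the median over arrays and 1 without the 3 mice of opposed dyes. The last 2 settings were chosen after seeing the data, and the single pair in both counts of 1 was Atp1b1 with Atp1b3 probe 14905.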
